A study of Mus musculus with 12 samples.

Results

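Zfp is the name that mouse gene nomenclature gives to a large collection of genes for zinc finger proteins. Of the 11669 genes in the deposited expression table, 267 were members: protein_coding genes whose name is Zfp followed by a digit, without Zfp36, Zfp36l1 and Zfp36l2. The rule uses names only and no measured value. The table itself puts 237 of the members in the transcription factor family zf-C2H2 and gives no family for the other 30.

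The study measured RNA by sequencing in 12 mouse libraries, 3 in each of 4 groups exposed for 24 h to NP-D@MP, NP-D@M, NP@M or PBS. The labels call the cells immune cells from marrow under the cell line name TAMC, and the extraction text in the same records speaks of retinas, a conflict that the labels do not resolve. The series as a whole is about a nanodrug that wears cancer cell membrane, is aimed at cyclin-dependent kinases and is given with a PD-L1 antibody. Since TAMC and the letters of the group names are not explained there, NP-D@MP and NP-D@M are called the groups with D here, and NP@M and PBS the groups without D. No strain, sex, age, dose or number of cultures or animals is given for any group, so p-values here rest on library-to-library spread alone, which may be technical.

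A C2H2 zinc finger is a short loop of protein held by a zinc ion between a pair of cysteines and a pair of histidines, and a row of such fingers reads DNA bases in order. Many Zfp proteins also carry a KRAB domain, which recruits the corepressor TRIM28 and, through it, histone methylation that keeps transposable elements silent. Other members work outside this route, as activators at promoters, in ubiquitin ligation, at the ribosome or on the spindle, and many have no described role. Their genes lie in tandem clusters of related sequences, so that short reads of close relatives can be hard to assign.

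Values are the FPKM the authors deposited (fragments per kilobase of gene and per M of library size), and whole reads were recovered from them for 100% of the values above 0, within 0.05 of a whole number. The table held 15.6 to 17.3 M reads per library with D and 14.4 to 16.2 M without D. The deposited FPKM correspond, however, to library sizes of 7.84 to 8.87 M with D and 31.6 to 38.1 M without D, so that a factor between libraries is built into them. With read totals in place of that factor, the median log2 fold change of all 8615 tested genes in NP-D@M against NP@M is -1.47, against 0.16 as deposited. Both scalings are therefore given wherever they lead to different directions. NP@M 2 and PBS 3 stood apart from the other libraries of their groups, with 9.11% and 9.31% of all genes at 0 reads, against 2.65% to 2.96% in the remaining 4 NP@M and PBS libraries. Of the 93 tested members, 35 had their lowest value of the group in both of these libraries and 39 had their highest value in both. Without these 2 libraries, 77 members were called lower and 10 higher in NP-D@M against NP@M, and 75 lower and 13 higher in NP-D@MP against PBS. Of all 8615 tested genes, 4098 were then lower and 3890 higher in NP-D@M against NP@M, and 4067 and 3923 in NP-D@MP against PBS.

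In the groups with D, the members together took a much smaller share of the reads. The 267 genes held 5830, 4776 and 4868 reads in the NP-D@MP libraries and 4307, 4778 and 5256 in the NP-D@M libraries. They held 55383, 73932 and 61581 reads in the NP@M libraries and 53834, 62299 and 65310 in the PBS libraries. All 6 libraries with D were thus below all 6 without D. As a share of all reads in the table, the members made up 0.0299% ± 0.00219 with D and 0.407% ± 0.0502 without D (SD, n = 6 each). The factor built into the deposited values does not touch this share. It is, however, the scale of read totals, and it also falls when other genes take more of the reads. On the deposited scale the gap was smaller, since the summed FPKM of all members was 109 to 149 with D and 303 to 363 without D. Many other genes of the table lost share too. In NP-D@M against NP@M, limma's voom with read totals, described below, gave a median log2 fold change of -5.70 for the members so tested. The median was -3.49 for protein_coding genes and -3.29 for all genes so tested. In these bulk libraries, fewer cells of a type and less RNA per cell cannot be told apart.

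**Figure D1:**
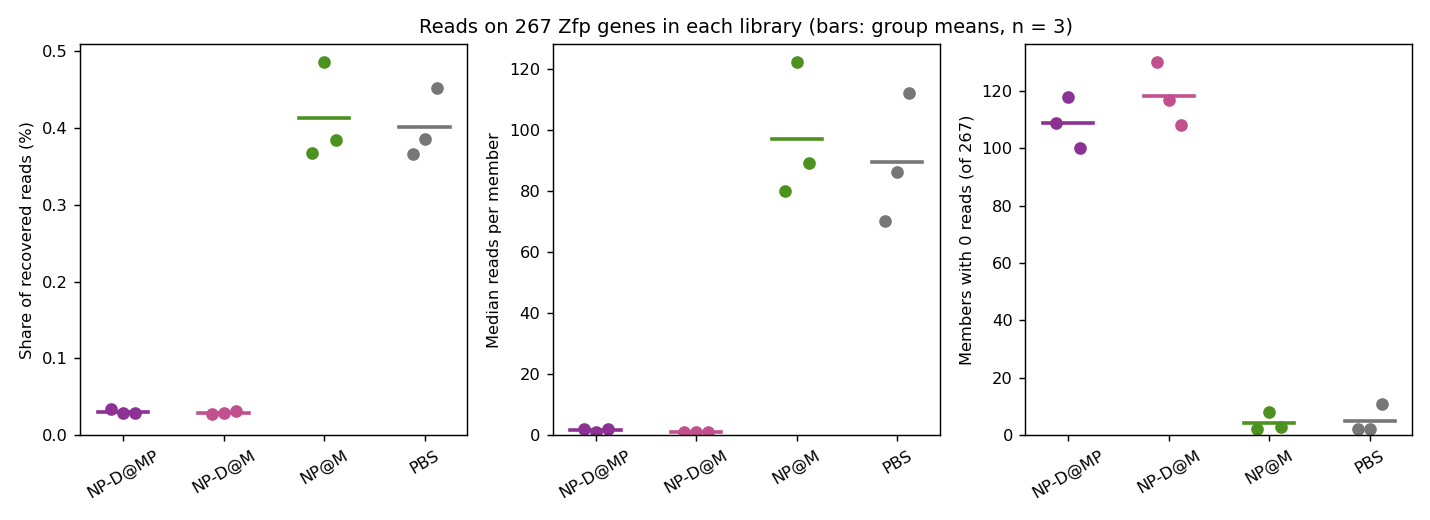
Share of recovered reads on the 267 members (in percent), median reads per member and number of members with 0 reads, with 1 point per library and a bar at each group mean (n = 3). The shares are 0.0276% to 0.0336% in the 6 libraries with D and 0.366% to 0.486% in the 6 without D, and 100 to 130 members have 0 reads with D against 2 to 11 without D.

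Most members were close to the limit of detection with D. The median number of reads per member was 1 or 2 in the libraries with D and 70 to 122 in those without D. The median over members of the mean FPKM was 0.0550 with D and 0.629 without D. Members with 0 reads numbered 100 to 130 in a library with D and 2 to 11 in a library without D. A group of 35 members had 0 reads in all 6 libraries with D, and these had 68 to 1009 reads in sum over the 6 libraries without D, with a median of 181. The most read of these 35, named after its values were seen, was Zfp507, with 0 reads in each library with D, 107, 299 and 131 reads in NP@M and 134, 136 and 202 reads in PBS. The converse was seen for 1 member, also named after its values were seen: Zfp966 had 0 reads in all 6 libraries without D and a value above 0, 0.421 FPKM, in NP-D@MP 1 alone of the libraries with D.

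Over all 267 members, without any filter, 245 had a lower mean FPKM with D than without D and 22 a higher one. With read totals these counts were 262 and 5. For 189 members all 6 libraries with D were below all 6 without D, and for 7 all 6 were above. Of all 11669 genes of the table, 41.8% lay below and 32.3% above in this way, and of its 10185 protein_coding genes, the class all members belong to, 46.5% and 31.1%. With read totals the members' counts were 238 and 0, beside 58.7% and 6.05% of all genes and 64.8% and 5.96% of protein_coding genes. The 7 were Zfp786, Zfp706, Zfp560, Zfp219, Zfp664, Zfp692 and Zfp385a.

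For testing, a gene had to reach 1 FPKM in at least 3 of the 12 libraries, which 93 members did and 174 did not. Of the 93, 63 reached 1 FPKM in no library with D, 3 in no library without D, and 14 in at least 3 libraries of each kind. Members that passed only through the libraries without D had to differ, so the counts below describe the tested members and do not stand for all 267. Each log2 fold change is on the scale of log2(FPKM + 1), which understates the changes of genes with low values, and a gene was called at a Benjamini-Hochberg adjusted p under 0.05 in limma.

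In NP-D@M against NP@M, the comparison of the same membrane particle with and without D, 75 of the 93 tested members were lower, 10 were higher and 8 were not called. Of all 8615 tested genes, 46.0% were called lower and 45.2% higher, so 91.2% were called in all. How genes were chosen for the table is not stated, and shares of calls hold only within it. Of the 7773 tested protein_coding genes, 3884 were lower and 3253 higher. The median log2 fold change was -1.15 for the members, -0.58 for all tested protein_coding genes and 0.16 for all tested genes, so the members lay -0.57 from their own class of genes. With read totals, 84 members were called lower and 0 higher, beside 61.7% and 9.12% of all tested genes. The medians were then -2.18 for the members, -1.75 for protein_coding genes and -1.47 for all tested genes. Of the 75 lower members, 57 were lower by at least 1 and 9 by at least 2 on the log2 scale, and 73 had NP-D@M and NP@M libraries that did not overlap. The 10 higher members all had groups that did not overlap. Of all tested genes, 45.4% were lower and 44.5% higher without overlap.

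**Figure D2:**
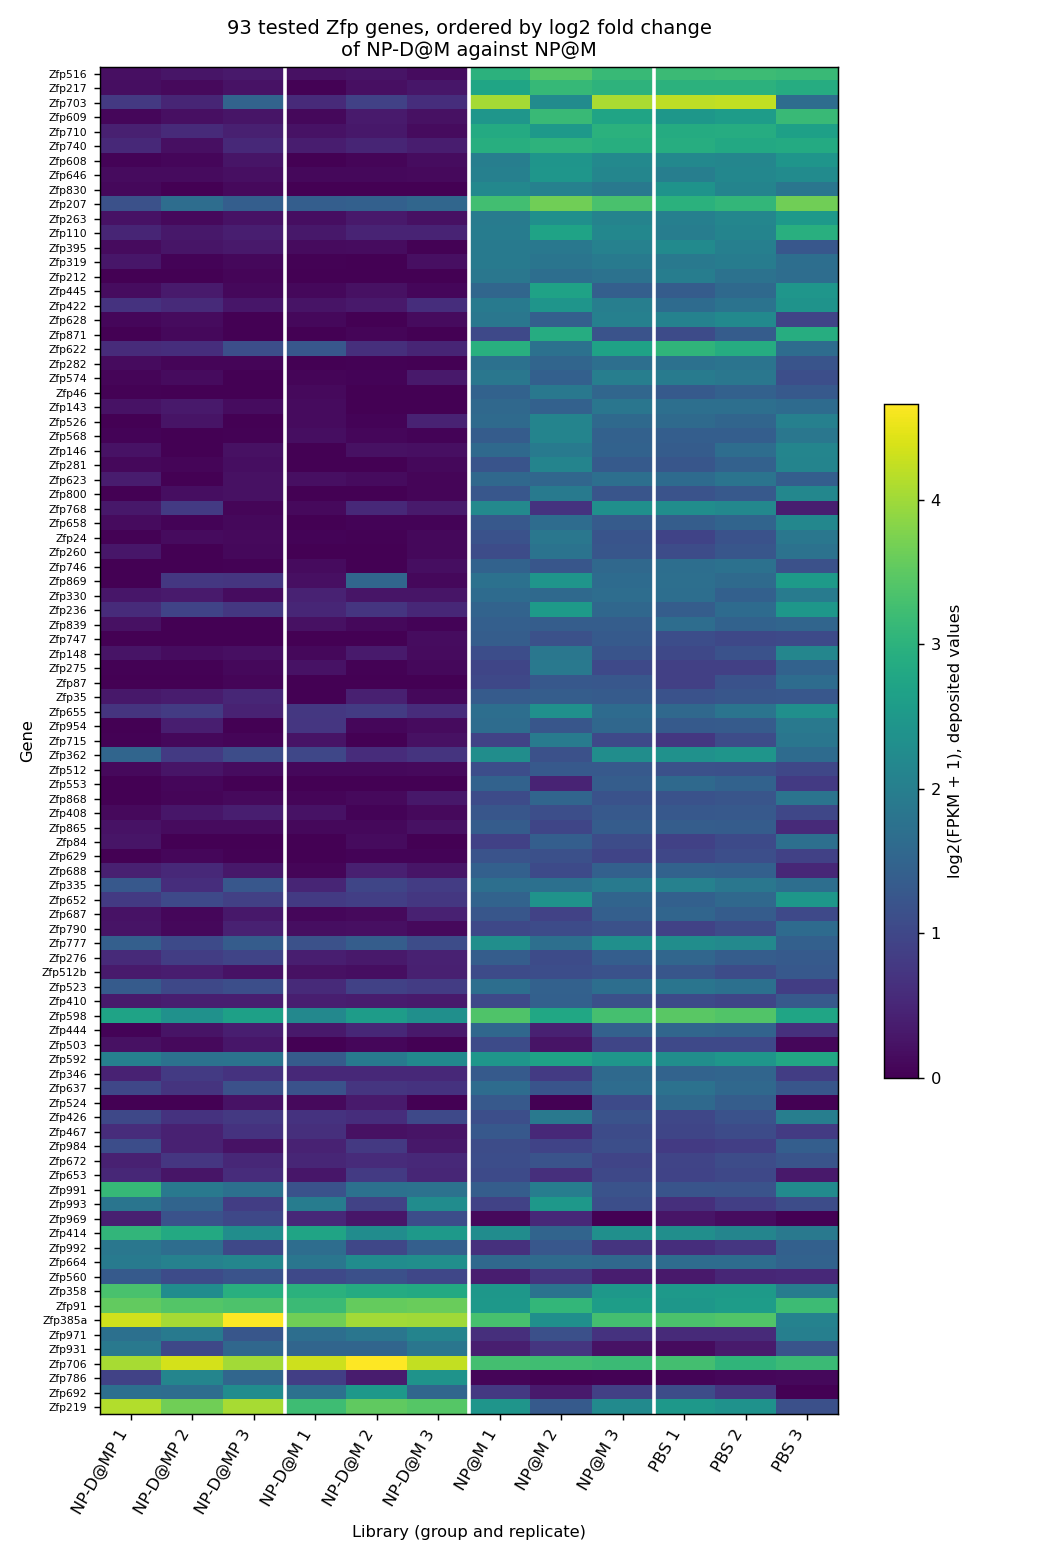
The 93 tested members (rows, ordered by log2 fold change in NP-D@M against NP@M) in the 12 libraries (columns), coloured by log2(FPKM + 1) of the deposited values. Most rows are dark in the 6 columns with D and brighter in the 6 without D, and the 10 higher members stand at one end of the order.

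The other comparison that adds D, NP-D@MP against PBS, shares no library with the first. Both come from 1 fit of all 12 libraries with a common estimate of each gene's spread, so their calls are not fully separate. By the group names, NP-D@MP also differs from PBS in more than D. In it 71 members were lower, 11 higher and 11 not called, beside 45.8% lower and 45.7% higher among all tested genes. The median log2 fold change was -1.09 for the members, -0.54 for tested protein_coding genes and 0.13 for all tested genes. With read totals, 81 members were lower and 0 higher, beside 62.4% and 9.01% of all tested genes. Called members whose groups did not overlap numbered 68 lower and 9 higher on the deposited values, beside 44.1% and 43.9% of all tested genes. Both comparisons called 70 members lower, which is 93.3% of those lower in NP-D@M against NP@M and 98.6% of those lower in NP-D@MP against PBS. Both called 9 higher, 90% and 81.8% of their lists, and 0 members were called in opposite directions. Across the 93 members, which are not independent replicates, the log2 fold changes had a Pearson r of 0.98 and a Spearman rho of 0.97. The 5 members called in neither comparison, named after their values were seen, were Zfp993, Zfp992, Zfp991, Zfp653 and Zfp358.

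A test on the recovered reads reached more of the members. Among genes with at least 10 reads in at least 3 libraries, limma's voom tested 260 of the 267 members in 10781 genes. The median member had 1 or 2 reads in a library with D and 70 to 122 in one without D. As with the first filter, members that passed only through the libraries without D had to differ, so these counts are no separate evidence of a decrease. With the deposited library sizes it called 216 lower and 10 higher in NP-D@M against NP@M (48.7% and 36.5% of all genes so tested). With read totals it called 245 lower and 2 higher (66.5% and 7.22%), and the 2 were Zfp786 and Zfp973. For NP-D@MP against PBS the counts were 200 lower and 12 higher with the deposited sizes (48.0% and 37.1%), and 243 lower and 1 higher with read totals (66.9% and 7%).

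**Figure D3:**
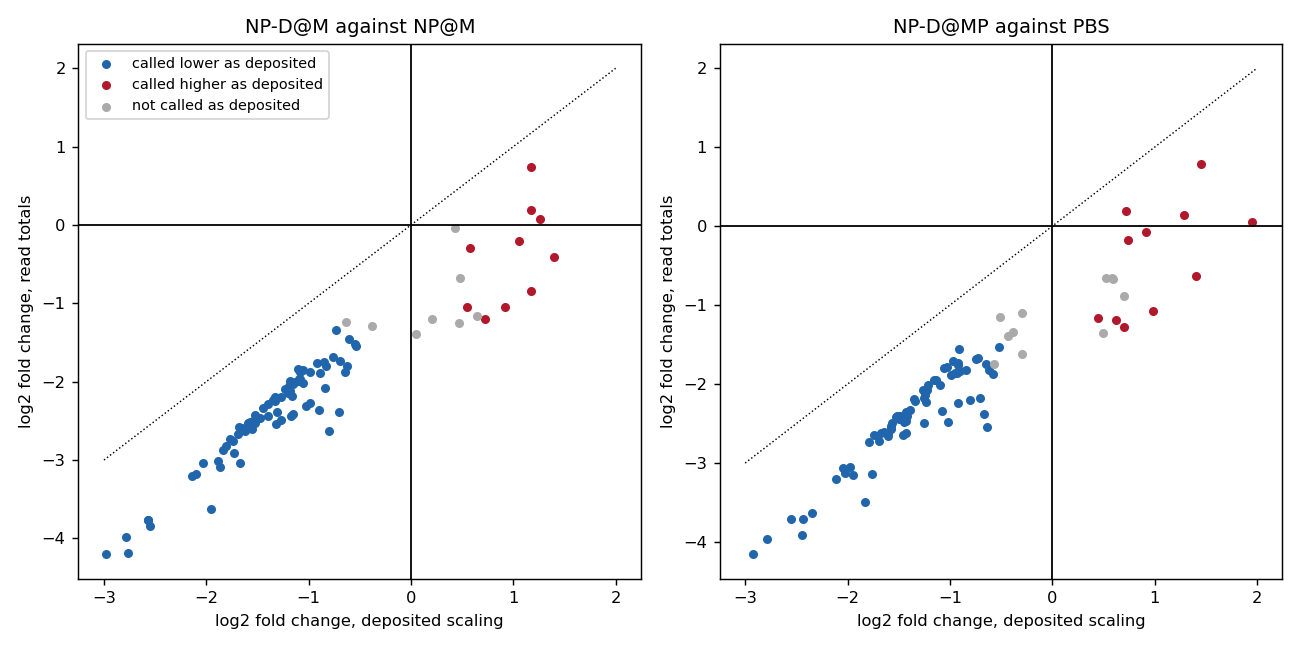
Log2 fold changes of the 93 tested members under the deposited scaling (x axis) and with read totals (y axis), for NP-D@M against NP@M and NP-D@MP against PBS, coloured by the call on the deposited values; the dotted line marks equal values. All points lie below the dotted line, and most members called higher on the deposited values lie near or below 0 on the y axis.

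Neither of the comparisons within the groups with or without D called a member. In NP-D@MP against NP-D@M, limma called 0 of 93 members, beside 0% of all tested genes, with 1 member at an unadjusted p under 0.05. That member, Zfp276, had 0.476, 0.799 and 0.942 FPKM in NP-D@MP and 0.314, 0.254 and 0.347 FPKM in NP-D@M, with an adjusted p of 0.82. Voom called 0 of 260 members in this comparison under both scalings (0% of all genes so tested, and 0.00928% lower with read totals), with 11 at an unadjusted p under 0.05 under each. In NP@M against PBS, limma called 0 of 93 members, beside 0.0116% of all tested genes, with 1 at an unadjusted p under 0.05, and voom called 0 of 260 with 1. That member in the limma fit, Zfp747, had 1.60, 1.24 and 1.50 FPKM in NP@M and 1.14, 1.02 and 1.06 FPKM in PBS, with an adjusted p of 1. The 95% interval of a member's log2 fold change reached 0.48 to either side at the median on the log2(FPKM + 1) scale, where the 1 added compresses low values. In voom with the deposited library sizes, over 260 members, it reached 2.11 in NP-D@MP against NP-D@M and 1.08 in NP@M against PBS, so differences smaller than these were mostly not detectable with 3 libraries a group.

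Of 19 genes listed as regulators of transcription and chromatin, 15 were in the table and 10 were tested, and all 10 were called lower in both comparisons that add D, with a median log2 fold change of -1.36 in NP-D@M against NP@M. Voom with the deposited library sizes tested all 15 and called 13 lower in NP-D@M against NP@M and 14 in NP-D@MP against PBS. The shares so called were 83.1% and 76.9% of the 260 members, and 48.7% and 48.0% of all genes so tested. Zfp516, an activator of the brown fat program in mice, had the largest decrease of the 93 tested members on the log2(FPKM + 1) scale. It lies at chr18:82910879-83005314 on GRCm38 (plus strand). Zfp516 had 0.146, 0.204 and 0.244 FPKM in NP-D@MP and 0.163, 0.179 and 0.115 FPKM in NP-D@M. It had 6.94, 9.68 and 7.89 FPKM in NP@M and 8.09, 8.19 and 7.99 FPKM in PBS. The groups with D were all under 0.25 FPKM and those without D all above 6.9. The log2 fold change was -2.98 (SE 0.14, adjusted p = 7.82e-08) in NP-D@M against NP@M and -2.92 (SE 0.14, adjusted p = 7.62e-08) in NP-D@MP against PBS. In reads, the libraries with D held 8 to 15 and those without D 1917 to 2662. Voom adds less than 1 read to each count, so it compresses low values less, but still limits the fold changes of members near 0 reads. With the deposited library sizes, its log2 fold change for Zfp516 in NP-D@M against NP@M was -5.69. Zfp282, described with its neighbours, had the largest decrease with -7.59, a fitted value that rests on 1 read in NP-D@M and on that offset.

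Zfp217, whose human counterpart is an oncogene found in CtBP and CoREST corepressor complexes, behaved likewise at chr2:170108643-170148103 (minus strand). It had 0.130, 0.0800 and 0.166 FPKM in NP-D@MP, 0.0188, 0.145 and 0.220 FPKM in NP-D@M, 5.66, 7.73 and 7.09 FPKM in NP@M and 7.02, 6.96 and 6.39 FPKM in PBS. Its log2 fold change was -2.79 (SE 0.15) in both comparisons, with adjusted p of 8.48e-08 and 8.12e-08. Zfp609, which works with the cohesin loader and the Integrator complex in mouse neurons, averaged 0.161 ± 0.0966 FPKM in NP-D@M and 6.02 ± 1.80 FPKM in NP@M (SD, n = 3 each), a log2 fold change of -2.57 (SE 0.22). Zfp592, which in human cells is part of a complex with ZNF687 and ZMYND8, changed least among the 10. It had 1.55, 2.75 and 3.63 FPKM in NP-D@M and 4.47, 5.42 and 4.49 FPKM in NP@M, a log2 fold change of -0.71 (adjusted p = 0.0111). Its groups still did not overlap, but the call in NP-D@MP against PBS was lost without PBS 3 (adjusted p = 0.0529). Zfp143, an activator bound at many promoters, averaged 0.0332 ± 0.0575 FPKM in NP-D@M and 2.08 ± 0.433 FPKM in NP@M, a log2 fold change of -1.57.

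Zfp703, whose human counterpart is an oncogene of luminal breast cancer, had the highest mean of any member without D, and its values there were uneven. It had 0.708, 0.398 and 1.80 FPKM in NP-D@MP, 0.477, 0.865 and 0.532 FPKM in NP-D@M, 15.4, 3.78 and 15.9 FPKM in NP@M and 17.3, 17.8 and 2.16 FPKM in PBS. NP@M 2 and PBS 3, the libraries that stood apart, held the low values without D, and both were still above every library with D. The log2 fold change was -2.77 (SE 0.67, adjusted p = 0.00234) in NP-D@M against NP@M and -2.45 (SE 0.67, adjusted p = 0.00484) in NP-D@MP against PBS. In voom with the deposited library sizes the call in NP-D@MP against PBS was lost (adjusted p = 0.0531). Zfp710, Zfp740 and Zfp646 complete the largest decreases, with log2 fold changes of -2.57, -2.55 and -2.10 in NP-D@M against NP@M. Zfp646 is annotated over Zfp668 and Prss53 on the other strand, Zfp740 over Csad, Zfp710 over genes that include Gm44951, Zfp703 over Gm45371, Zfp143 over AA474408 and Zfp516 over AC142100.4. Whether counting used strand is not stated, so the reads of these and of all other members that overlap a gene on the other strand are uncertain.

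**Figure D4:**
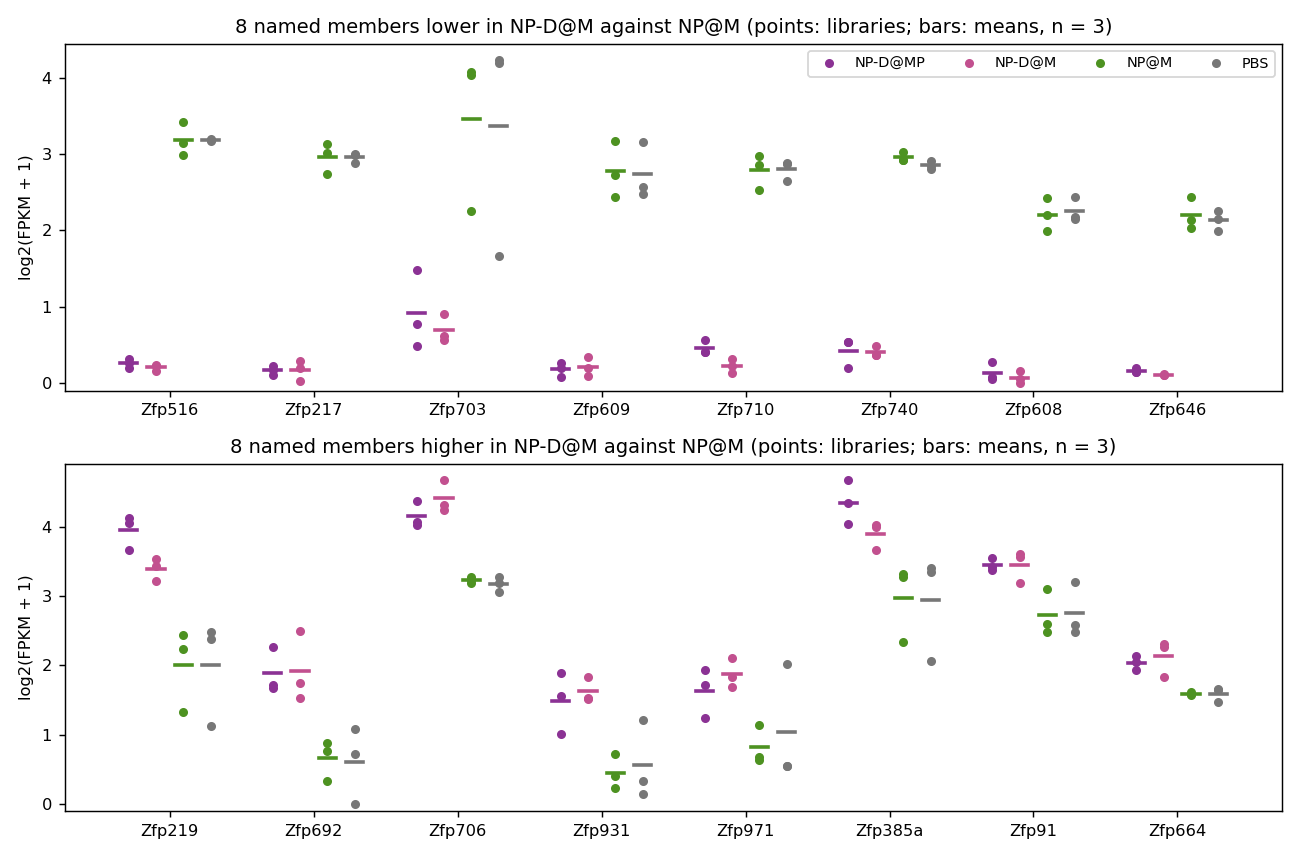
Deposited log2(FPKM + 1) of the 8 named members with the largest decreases (upper panel) and the 8 with the largest increases (lower panel) in NP-D@M against NP@M, with 1 point per library in the order NP-D@MP, NP-D@M, NP@M, PBS and a bar at the mean (n = 3). In the upper panel the points with D lie near 0 and those without D above them, with NP@M 2 and PBS 3 low for Zfp703; in the lower panel the means with D lie higher, with PBS 3 among the points with D for Zfp931 and Zfp971.

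Among members that act on RNA, at the ribosome or in mitosis, 7 of 10 listed genes were in the table and 6 were tested. Of these, 5 were lower and 1, Zfp385a, was higher in both comparisons that add D. The shares lower were 80.6% and 76.3% of the 93 tested members in NP-D@M against NP@M and NP-D@MP against PBS. Of all tested genes, 46.0% and 45.8% were lower there, and 45.2% and 45.7% higher. Zfp207, known in human cells as BuGZ, binds the checkpoint protein BUB3 and helps chromosomes align. It had 1.22, 2.18 and 1.64 FPKM in NP-D@MP, 1.62, 1.70 and 1.91 FPKM in NP-D@M, 8.50, 11.6 and 8.96 FPKM in NP@M and 6.89, 7.51 and 11.6 FPKM in PBS. Every library with D was below every library without D, and the log2 fold change was -1.95 (SE 0.21, adjusted p = 6.9e-06) in NP-D@M against NP@M. Zfp598, the ubiquitin ligase that marks collided ribosomes, kept more of its level with D than most members. It had 5.50, 4.15 and 5.30 FPKM in NP-D@MP, 3.52, 4.97 and 3.98 FPKM in NP-D@M, 9.47, 5.84 and 8.83 FPKM in NP@M and 10.1, 9.55 and 5.70 FPKM in PBS. Its log2 fold change was -0.80 (adjusted p = 0.00821) in NP-D@M against NP@M and -0.63 (adjusted p = 0.0252) in NP-D@MP against PBS. The call in NP-D@MP against PBS was lost without PBS 1 (adjusted p = 0.0935), without PBS 2 (0.0857) or without NP-D@MP 2 (0.0875), and in voom with the deposited library sizes (0.0552).

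Zfp622, which takes part in the maturation of the large ribosomal subunit, had a log2 fold change of -1.67 (SE 0.41) in NP-D@M against NP@M. Its values without D were again low in NP@M 2 and PBS 3, at 2.36 and 2.13 FPKM, against 5.44 to 7.34 FPKM in the other 4 libraries. Zfp830, a splicing and genome integrity factor needed in the early mouse embryo and in blood progenitors, was almost absent with D. It had 1, 0 and 1 reads in NP-D@MP, 0 reads in each NP-D@M library, 197, 176 and 161 reads in NP@M and 234, 199 and 129 reads in PBS. Against a floor of 3 reads per library, which covers counting error only, Zfp830 was at least 13.9-fold lower in NP-D@M than in NP@M on the deposited scale, and at least 62.5-fold lower with read totals.

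The list of members linked to immune and blood cells was small, with 5 of 6 genes in the table and 3 tested. Of these, 2 were lower and 1 was higher in each comparison that adds D. In NP-D@M against NP@M, 80.6% of the 93 tested members were lower and 10.8% higher, beside 46.0% and 45.2% of all tested genes. For NP-D@MP against PBS the shares were 76.3% and 11.8% of members, beside 45.8% and 45.7% of all tested genes. Zfp608, which represses the recombinase genes Rag1 and Rag2 in mouse thymocytes, lies at chr18:54888045-54990180. It had 2, 3 and 10 reads in NP-D@MP, 0, 2 and 6 in NP-D@M, 644, 941 and 827 in NP@M and 740, 798 and 854 in PBS. The groups were far apart, with a log2 fold change of -2.14 with an SE of 0.15 (adjusted p = 3.43e-07) in NP-D@M against NP@M. Zfp335, a subunit of histone methyltransferase complexes that mouse thymocytes need to mature, had 0.390, 0.968 and 0.784 FPKM in NP-D@M and 2.27, 2.31 and 2.81 FPKM in NP@M, a log2 fold change of -1.03 (adjusted p = 0.000844). The member that was higher, Zfp91, is described with the other higher members.

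Of 5 listed members that guard imprints and early embryos, 4 were in the table and 2 were tested, both lower. In limma, 80.6% of the 93 tested members and 46.0% of all tested genes were lower in NP-D@M against NP@M. Voom with the deposited library sizes tested all 4 and called 3 lower in NP-D@M against NP@M and 2 in NP-D@MP against PBS. In these voom comparisons 83.1% and 76.9% of the 260 members were lower, beside 48.7% and 48.0% of all genes so tested. Zfp57, which protects imprinted methylation in mice, was called in neither, with 4, 2 and 0 reads in NP-D@MP, 0 in each NP-D@M library, 12, 0 and 25 in NP@M and 24, 13 and 12 in PBS. Zfp445, a KRAB protein that protects imprinted methylation, had 0.0781, 0.155 and 0.0609 FPKM in NP-D@M and 1.89, 5.45 and 1.66 FPKM in NP@M. Its log2 fold change came to -1.74 (SE 0.34, adjusted p = 0.000543) there and -1.61 (adjusted p = 0.000934) in NP-D@MP against PBS. Here NP@M 2 was high, as was PBS 3 with 4.48 FPKM, against 1.55 and 2.02 FPKM in the other PBS libraries. Zfp568, a KRAB protein that silences a placental transcript of Igf2 in mice, had 8, 3 and 2 reads in NP-D@M and 410, 856 and 476 in NP@M, a log2 fold change of -1.54 (adjusted p = 2.31e-05). Zfp809, which silences murine leukaemia proviruses in mouse embryonic stem cells, stayed under the filter, with 0 to 9 reads with D and 60 to 126 reads without D.

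The partners through which KRAB proteins act are no members, but were measured beside them. Of 18 listed gene names of the TRIM28 and HUSH silencing machinery, 14 were in the table and 12 were tested. Tasor, not in the table, and Fam208a, in it, name the same gene. In each comparison that adds D, 11 were lower and 1 higher, with a median log2 fold change of -1.58 in NP-D@M against NP@M. Of all tested genes, 46.0% were lower and 45.2% higher in NP-D@M against NP@M, and 45.8% and 45.7% in NP-D@MP against PBS. Setdb1, the histone methyltransferase that TRIM28 recruits, averaged 0.285 ± 0.0822 FPKM in NP-D@M and 3.28 ± 0.736 FPKM in NP@M (SD, n = 3 each), a log2 fold change of -1.72 (adjusted p = 1.6e-05). Atf7ip, its partner, had a log2 fold change of -1.68 (adjusted p = 1.32e-05). Pphln1 of the HUSH complex and Dnmt1, the maintenance DNA methyltransferase, had log2 fold changes of -1.66 and -1.75. Trim28 itself averaged 7.17 ± 0.270 FPKM in NP-D@M and 20.4 ± 2.81 FPKM in NP@M, a log2 fold change of -1.38 (adjusted p = 0.00013). The 1 higher gene, Hdac1, a histone deacetylase, had a log2 fold change of 1.55 as deposited and of -0.43 with read totals (adjusted p = 0.186) in that comparison. For NP-D@MP against PBS it was 1.36 as deposited and -0.68 with read totals (adjusted p = 0.0431), a call in the opposite direction. The choice of Trim28 and Hdac1 came after their values were known.

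The higher members include several with known roles outside repeat silencing, and for most of them the direction depends on the scaling. The 10 called higher in NP-D@M against NP@M stood above the median of all tested genes under both scalings there. The distance was 0.39 (Zfp664) to 1.24 (Zfp219) as deposited and 0.27 (Zfp91) to 2.21 (Zfp786) with read totals, and was not tested. Zfp706, which represses Klf4 in mouse embryonic stem cells, had the highest mean of all members with D. It had 15.7, 19.6 and 15.3 FPKM in NP-D@MP, 18.8, 24.4 and 17.9 FPKM in NP-D@M, 8.66, 8.38 and 8.12 FPKM in NP@M and 8.62, 7.35 and 8.07 FPKM in PBS. All libraries with D were above all without D on this scale, with a log2 fold change of 1.18 with an SE of 0.17 (adjusted p = 5.39e-05) in NP-D@M against NP@M and 0.98 (adjusted p = 0.000206) in NP-D@MP against PBS. In reads the order was the reverse, with 599 to 952 in the libraries with D and 1271 to 1524 in those without D. With read totals the log2 fold changes were -0.84 (adjusted p = 0.000369) and -1.08 (adjusted p = 5.04e-05). Relative to the median of all tested genes, Zfp706 stood higher under both scalings in NP-D@M against NP@M, by 1.02 as deposited and by 0.63 with read totals. An antisense gene, Gm26766, overlaps it.

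Zfp91, a ubiquitin ligase of the noncanonical NF-kappaB pathway, showed the same dependence. It had 10.7, 9.71 and 9.33 FPKM in NP-D@MP, 8.07, 10.8 and 11.1 FPKM in NP-D@M, 4.60, 7.55 and 5.05 FPKM in NP@M and 4.55, 4.97 and 8.16 FPKM in PBS. NP@M 2 and PBS 3 were the high libraries without D. The log2 fold change in NP-D@M against NP@M was 0.72 (SE 0.23, adjusted p = 0.0121) as deposited and -1.20 (adjusted p = 0.000517) with read totals. The call in NP-D@MP against PBS (log2 fold change 0.70) was lost without PBS 1 or PBS 2, at adjusted p of 0.0579 and 0.0519. Cntf overlaps Zfp91 on the same strand, so that their reads may be split between them.

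Zfp385a, an RNA-binding protein and target of p53 that steers p53 towards cell cycle arrest genes, had 19.1, 15.4 and 24.4 FPKM in NP-D@MP, 11.6, 15.3 and 15.0 FPKM in NP-D@M, 8.94, 4.04 and 8.68 FPKM in NP@M and 9.14, 9.56 and 3.19 FPKM in PBS. Its groups did not overlap, but NP@M 2 and PBS 3 were the low libraries. The log2 fold change in NP-D@M against NP@M was 0.92 (SE 0.37, adjusted p = 0.0351) as deposited and -1.05 (adjusted p = 0.0415) with read totals, and without NP@M 2 it was 0.60 (adjusted p = 0.144). The call was also lost without NP-D@M 2 (adjusted p = 0.0882) or NP-D@M 3 (0.0852), and in voom with the deposited library sizes (0.0517). For NP-D@MP against PBS it was 1.41 (adjusted p = 0.00408) as deposited and -0.63 (adjusted p = 0.194) with read totals.

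Zfp219, a partner of Sox9 in mouse cartilage, had the largest increase of the tested members on the log2(FPKM + 1) scale of the deposited values. In the ratio of the means, and in voom, Zfp786 was further apart. Zfp219 had 16.5, 11.6 and 15.6 FPKM in NP-D@MP, 8.32, 10.5 and 9.75 FPKM in NP-D@M, 4.40, 1.51 and 3.70 FPKM in NP@M and 4.58, 4.22 and 1.19 FPKM in PBS. Once more NP@M 2 and PBS 3 were the low libraries. The log2 fold change was 1.39 (SE 0.37, adjusted p = 0.00413) in NP-D@M against NP@M and 1.95 (SE 0.37, adjusted p = 0.000458) in NP-D@MP against PBS. With read totals these were -0.41 (adjusted p = 0.431) and 0.053 (adjusted p = 0.921), so no difference was called. Arhgef40, Tmem253 and Gm49086 overlap Zfp219 on the other strand. Zfp664 and Zfp560 had log2 fold changes of 0.55 and 0.57 in NP-D@M against NP@M as deposited, and of -1.04 and -0.29 with read totals. For Zfp664 the call in NP-D@MP against PBS was lost without PBS 3 (adjusted p = 0.0517) or NP-D@MP 3 (0.0647).

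Zfp692 and Zfp931 were higher in NP-D@M against NP@M as deposited and not called with read totals. Zfp692 had 2.36, 4.61 and 1.89 FPKM in NP-D@M and 0.706, 0.261 and 0.839 FPKM in NP@M, and the log2 fold change was 1.26 (adjusted p = 0.00325) as deposited and 0.077 (adjusted p = 0.881) with read totals. In voom with the deposited library sizes Zfp692 was not called in NP-D@M against NP@M (log2 fold change 2.32, adjusted p = 0.0746) and was called in NP-D@MP against PBS (3.85, adjusted p = 0.0179). Zfp931 had 1.86, 1.89 and 2.55 FPKM in NP-D@M and 0.320, 0.643 and 0.173 FPKM in NP@M, and the log2 fold change was 1.18 (adjusted p = 0.00277) as deposited and 0.19 (adjusted p = 0.672) with read totals. In NP-D@MP against PBS, Zfp931 was called too (log2 fold change 0.92, adjusted p = 0.0112), with 2.69, 1.01 and 1.94 FPKM in NP-D@MP and 0.101, 0.262 and 1.32 FPKM in PBS. Those groups overlap, since PBS 3 was above NP-D@MP 2. Zfp971, a neighbour of Zfp931 on chromosome 2, was called in NP-D@M against NP@M only (log2 fold change 1.06, adjusted p = 0.0158; -0.21 with read totals), and this call was lost without NP-D@M 3 (adjusted p = 0.0539). The adjusted p in NP-D@MP against PBS was 0.132, and without PBS 3, which held 3.04 FPKM against 0.461 and 0.465 in the other PBS libraries, the log2 fold change was 1.08 (adjusted p = 0.00118).

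Close relatives on chromosomes 2 and 4 were among the members that were not lower. Zfp973, on chromosome 2, was under the filter, and had 0, 10 and 15 reads in NP-D@MP, 17, 17 and 14 in NP-D@M, 0 in each NP@M library and 0, 8 and 0 in PBS. In the voom test it was higher in NP-D@M against NP@M under both scalings, with adjusted p of 0.000346 with the deposited library sizes and 0.00318 with read totals. Zfp969, near it, was called higher in NP-D@MP against PBS alone, with 5, 18 and 14 reads in NP-D@MP and 12, 8 and 0 in PBS. On chromosome 4, Zfp991, Zfp992 and Zfp993 were called in neither comparison that adds D; Zfp993, for example, had 2.90, 0.900 and 3.80 FPKM in NP-D@M and 0.888, 4.59 and 1.19 FPKM in NP@M. These genes have near relatives beside them, and how the authors counted reads that match several genes is not stated, so their values are uncertain. In NP-D@M against NP@M, 4 of 7 tested members on chromosome 2 were lower and 2 higher, 3 of 6 on chromosome 4 were lower and 0 higher, and 23 of 24 on chromosome 7, the chromosome with the most members, were lower and 0 higher. In voom with the deposited library sizes, which tested 67 members on chromosome 7, 83.6% of them were lower, beside 83.1% of all 260 members so tested. In the limma fit, 80.6% of the 93 tested members and 46.0% of all tested genes were lower in NP-D@M against NP@M. Differences between chromosomes were not tested.

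Zfp786 had a positive log2 fold change with D under both scalings in both comparisons, and it sits in a row of members whose mean FPKM was lower with D. It lies at chr6:47819266-47830867 (minus strand, identifier ENSMUSG00000051499), and no other annotated gene overlaps it. It had 0.886, 3.35 and 1.90 FPKM in NP-D@MP, 0.811, 0.282 and 4.28 FPKM in NP-D@M, 0.0470, 0 and 0.0147 FPKM in NP@M and 0.0268, 0.0581 and 0.0700 FPKM in PBS. In reads this was 42, 148 and 81 in NP-D@MP, 38, 12 and 206 in NP-D@M, 9, 0 and 3 in NP@M and 5, 12 and 12 in PBS. The groups did not overlap in FPKM, but the libraries with D were spread over a factor of more than 10. The log2 fold change was 1.18 (SE 0.44, adjusted p = 0.0238) in NP-D@M against NP@M and 1.45 (SE 0.44, adjusted p = 0.00844) in NP-D@MP against PBS. With read totals it was 0.74 (adjusted p = 0.0729) and 0.79 (adjusted p = 0.0578), so the direction was kept and the calls were not. In voom with read totals, Zfp786 was called in both, with log2 fold changes of 4.13 (adjusted p = 0.0129) and 2.90 (adjusted p = 0.0336). The limma call in NP-D@M against NP@M was lost without NP-D@M 3 (log2 fold change 0.58, adjusted p = 0.0815) and without NP@M 3 (adjusted p = 0.0505).

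The neighbours of Zfp786 in the table follow in the order Zfp398, Zfp282, Zfp212, Zfp956, Zfp777 and Zfp746. Zfp398 had 1, 0 and 0 reads in NP-D@MP, 0 in each NP-D@M library, 209, 390 and 235 in NP@M and 185, 202 and 362 in PBS, and was under the filter for testing. Zfp282 had 7, 3 and 3 reads in NP-D@MP, 0, 1 and 0 in NP-D@M, 631, 508 and 652 in NP@M and 616, 722 and 319 in PBS, with a log2 fold change of -1.65 (adjusted p = 2.33e-06) in NP-D@M against NP@M. Zfp212 had 0, 0 and 1 reads in NP-D@MP, 0 in each NP-D@M library, 278, 235 and 270 in NP@M and 304, 275 and 207 in PBS. These 3 genes were thus almost without reads with D. Against the floor of 3 reads per library, Zfp212 was at least 20.3-fold lower and Zfp398 at least 21.8-fold lower in NP-D@M than in NP@M on the deposited scale, and at least 91.5-fold and 97.6-fold lower with read totals.

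Zfp746, the repressor PARIS that parkin degrades, averaged 0.0756 ± 0.0667 FPKM in NP-D@M and 1.70 ± 0.303 FPKM in NP@M (SD, n = 3 each), a log2 fold change of -1.32 (adjusted p = 1.66e-05). Zfp777 kept more of its level, with 1.32 ± 0.248 FPKM in NP-D@M and 3.38 ± 0.985 FPKM in NP@M. On the other side of Zfp786, on the same strand, lies Pdia4, a disulfide isomerase of the endoplasmic reticulum and no Zfp gene. It averaged 885 ± 228 FPKM in NP-D@M and 88.5 ± 4.25 FPKM in NP@M. Whether reads of one gene were counted for the other was not tested.

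**Figure D5:**
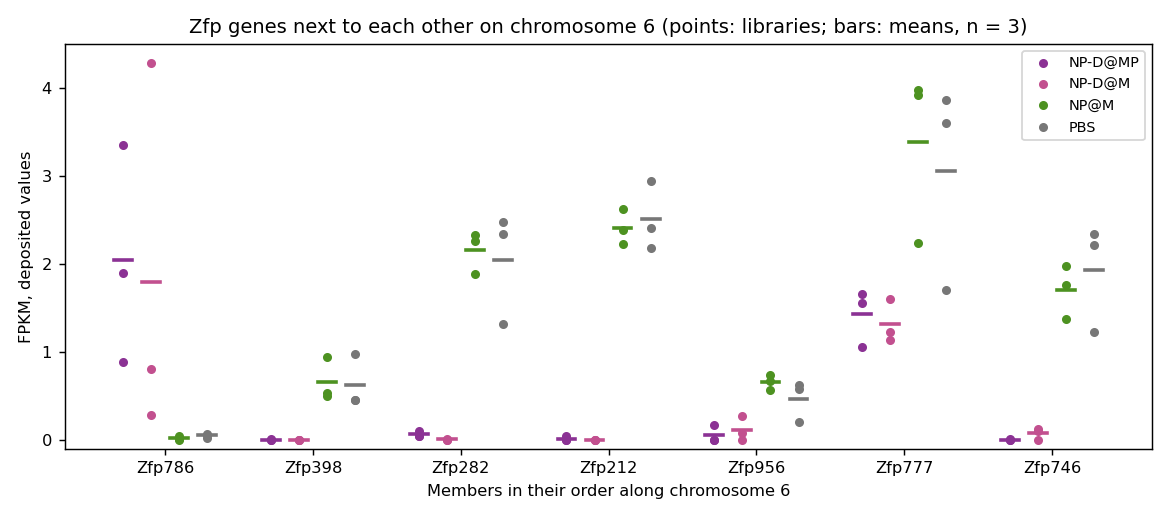
Deposited FPKM of 7 members in their order along chromosome 6, with 1 point per library in the order NP-D@MP, NP-D@M, NP@M, PBS and a bar at the mean (n = 3). Zfp786 is the only one of the 7 with all points with D above all points without D, at 0.282 to 4.28 FPKM against 0 to 0.0700.

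The sequences before the RefSeq starts of Zfp786, Zfp282 and Zfp212 are shown because the genes lie in the same stretch of chromosome 6. Zfp398 lies between Zfp786 and Zfp282, and the genes shown were called in opposite directions on the deposited values. Each is the 250 bases before the gene's start in RefSeq on GRCm38.p6, written 5′ to 3′ on the gene's own strand. They lie at chr6:47830506-47830755 (minus strand) for Zfp786, chr6:47877305-47877554 (plus strand) for Zfp282 and chr6:47920318-47920567 (plus strand) for Zfp212. The gene positions deposited with the values begin elsewhere, at 47830867 for Zfp786, 47877204 for Zfp282 and 47920476 for Zfp212. By those positions the windows of Zfp786 and Zfp282 lie inside the genes, and that of Zfp212 spans its start. Which start these cells use was not tested. Capitals mark matches to the GC box (GGGCGG or CCGCCC) and to the CCAAT box (CCAAT or ATTGG).
Zfp786: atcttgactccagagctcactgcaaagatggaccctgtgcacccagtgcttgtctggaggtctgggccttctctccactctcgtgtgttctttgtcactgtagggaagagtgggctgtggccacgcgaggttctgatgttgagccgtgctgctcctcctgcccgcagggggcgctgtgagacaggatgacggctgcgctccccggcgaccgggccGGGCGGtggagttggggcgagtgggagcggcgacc
Zfp282: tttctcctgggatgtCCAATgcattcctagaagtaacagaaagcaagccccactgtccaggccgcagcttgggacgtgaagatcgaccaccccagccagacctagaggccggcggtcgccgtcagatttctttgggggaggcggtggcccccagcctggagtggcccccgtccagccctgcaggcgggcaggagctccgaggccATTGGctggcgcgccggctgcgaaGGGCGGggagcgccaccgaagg
Zfp212: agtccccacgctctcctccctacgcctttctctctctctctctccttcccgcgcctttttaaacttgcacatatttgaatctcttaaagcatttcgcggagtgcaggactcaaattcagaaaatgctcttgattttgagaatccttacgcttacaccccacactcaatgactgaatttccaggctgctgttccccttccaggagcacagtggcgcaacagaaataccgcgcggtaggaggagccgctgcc

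Zfp786 had 1 GC box and 0 CCAAT boxes, Zfp282 had 1 GC box and 2 CCAAT boxes, and Zfp212 had neither. The G and C content of these windows was 64.4%, 66.8% and 50.8% in the same order. Over the 225 members with a RefSeq promoter in the table used, 37.3% held a GC box and 48% a CCAAT box in this window, beside 59.8% and 36.4% of 7849 other protein_coding genes of the expression table, and 32.9% and 34.5% of all 27025 promoters. The median G and C content was 54% for the members and 60% for those other genes. Among the members called in NP-D@M against NP@M, a GC box stood in 58.6% of the 58 lower members matched and in 44.4% (4) of the 9 higher members matched. Called members had passed the filter on FPKM, which not all of the 225 had. The share among all tested members was not computed, so these shares are not set against the 37.3%. The letters of the TATA box (TATAAA) stood in 5.78% of member windows, 6.66% of those other protein_coding genes and 13% of all promoters, and the ETS motif (CCGGAAG) in 17.3%, 14.2% and 7.05%, on either strand. A match describes the letters in the window and no more.

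Other zinc finger genes of the table were lowered as well, so the decrease was not shown to be particular to the Zfp names. Of 35 Zbtb genes, which pair zinc fingers with a BTB domain, 20 were tested, and 18 were lower and 2 higher in NP-D@M against NP@M, with a median log2 fold change of -1.25. Of 105 other protein_coding genes that the table puts in the zf-C2H2 family, 57 were tested, and 51 were lower and 5 higher, with a median of -1.52. Among all tested genes, 46.0% were lower and 45.2% higher in NP-D@M against NP@M. With read totals the medians were -2.30 and -2.53, against -2.18 for the Zfp members, -1.75 for protein_coding genes and -1.47 for all tested genes. Within the members, those of the zf-C2H2 family (63 lower and 8 higher of 78 tested) and those with no family given (12 lower and 2 higher of 15 tested) had medians of -1.14 and -1.31.

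Markers of cell types were compared as sums, which a few abundant genes can dominate, and single markers are not described. All 8 monocyte and macrophage markers passed the filter, and their summed level was 29260 to 39732 FPKM with D and 2364 to 3741 FPKM without D, which is 2.18% to 2.69% and 0.855% to 1.29% of the reads. Of 8 neutrophil and granulocyte markers 6 were in the table, at 1040 to 3184 FPKM with D and 455 to 1380 FPKM without D, and at 0.0368% to 0.105% and 0.0811% to 0.229% of the reads. These neutrophil ranges overlapped on both scales, and their direction turned with the scale. Markers of T and NK cells, of erythroid cells and of retina were not in the table, and the 1 B cell marker in it, Ms4a1, did not exceed 0.144 FPKM. What part these marker levels had in the decrease of the Zfp members was not tested.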

How the data were processed

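The authors deposited 1 table of FPKM values for 12 libraries (4 groups, 3 each), and the unit was read from the values, since no header names it. Bowtie 0.12.2 and the build mm8 are named, per the submitters' processing notes, with no role given. Library preparation was with an Illumina TruSeq kit, per the labels' protocols, and the factor between libraries, the choice of genes and the use of strand in counting are not given in the sources used here.

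FPKM times gene length gave whole reads. Log2(FPKM + 1) of the 8615 genes with at least 1 FPKM in at least 3 libraries entered limma 3.58.1 (R 4.3.3; 4 group means, trend and robust empirical Bayes), with Benjamini-Hochberg adjustment over all tested genes in each of 4 comparisons and calls at an adjusted p under 0.05, 2-sided. The fitting procedure was also run on simulated counts with a small part of the genes changed and the same scaling factor in all libraries. That setting does not cover the factor between libraries or the many changed genes found here. Python 3.11.15, pandas 2.3.3, numpy 2.4.6 and matplotlib 3.10.9 did the rest. Identifiers of 267 of 267 members matched GENCODE release M21 on GRCm38, with equal start and end for 258, and 106 overlap another annotated gene. Positions are on GRCm38.

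Members, lists and alternatives were chosen with earlier results of these data known. Named members are up to 8 called per direction and comparison with the largest fold change, groups that do not overlap and at least 2 FPKM in the higher group, the 6 highest means, up to 3 per role list by mean, 4 partners of KRAB proteins and up to 6 members whose direction turns with read totals. The 95% intervals come from limma and rest on the spread between libraries, and floors (3 reads) cover counting error only, since reads are not independent molecules.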

Additional observations from a re-analysis of the deposited data

How the results depend on the processing

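Of 24 alternatives, 22 were listed at the start and 2, the voom fits with 10 reads in 3 libraries, were chosen after seeing the data. Members called lower in NP-D@M against NP@M numbered 75 of 93, and with quantile normalization 46 of 93, with no filter 213 of 267, with a filter of 5 FPKM in 3 libraries 9 of 15, and in voom, of 260, 216 with the deposited library sizes and 245 with read totals. Of all genes so tested, 34.0%, 46.0% and 30.4% were lower with quantile normalization, no filter and the filter of 5. In NP-D@MP against PBS, 71 members were lower, and in the same order 46, 203, 9, 200 and 243. The shares of all genes lower there were 33.7%, 45.7% and 30.5% with quantile normalization, no filter and the filter of 5. Members called higher numbered 10 in NP-D@M against NP@M, and with read totals 0, with the filter of 5 in 3 libraries 4 (62.5% of all genes), in voom with TMM 3 (35.0% of all genes) and in voom with read totals 2. In NP-D@MP against PBS, 11 were higher, and in the same order 0, 5 (63.0% of all genes), 5 (35.4%) and 1. Quantile normalization gave 10 and 11 higher members in the 2 comparisons, beside 34.8% and 34.7% of all genes. Equal medians gave 13 and 15, beside 4220 and 4221 of 8615 genes. Leaving out each of the 12 libraries in turn gave 69 to 77 lower and 7 to 11 higher members in NP-D@M against NP@M, 64 to 74 lower and 9 to 12 higher in NP-D@MP against PBS, and 0 to 0 in the other comparisons.

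Directions turned with read totals only, in the fit on FPKM and in voom. In NP-D@M against NP@M, in that order, the log2 fold changes were -0.41 and -0.46 for Zfp219, -1.05 and -1.14 for Zfp385a, -0.29 and -0.65 for Zfp560, -1.04 and -1.41 for Zfp664, -0.84 and -0.90 for Zfp706, -1.20 and -1.34 for Zfp91, and -0.21 and -0.31 for Zfp971. In NP-D@MP against PBS they were -0.63 and -0.68 for Zfp385a, -0.17 and -0.39 for Zfp560, -1.16 and -1.61 for Zfp664, -1.08 and -1.17 for Zfp706, -1.28 and -1.44 for Zfp91, and -0.66 and -0.95 for Zfp971, and for Zfp931 -0.072 in the fit on FPKM. These alternatives rescale libraries with and without D against each other by construction. Of the 26 named members, 25 entered this count, since Zfp809 was under the filter. Over them, 1087 values kept their direction and stayed called or not called, 56 lost the call, 4 gained it and 27 turned.

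No paired analysis was possible because the labels give no replicate numbers that groups share. With 1 or 2 reads for the median member in a library with D, differences between NP-D@MP and NP-D@M were mostly not detectable at this depth, and how many members are called higher with D depends on the scaling.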
